A study of Mus musculus with 12 samples.

Results

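The transcripts 4930470H14Rik, E030030I06Rik, 4930405P13Rik, 1810019D21Rik and Col6a4 are 5 of the 23235 entries of an expression table of mouse oocyte nuclei and cytoplasms. They were chosen on their levels, because Mtr4-null cytoplasm held more of them than wild-type (WT) cytoplasm without a matching increase in the nuclei. Their levels in the 4 groups and every difference between those groups are therefore given as a description, with no test. All 5 were among the 13157 entries tested, for which 3 or more of the 12 libraries had to reach 1 FPKM. FPKM is the number of sequenced fragments divided by transcript length and by the mapped fragments of the library, so it is a share of a library's RNA and not an amount per cell. RefSeq annotates 3 of them as long noncoding RNAs (4930470H14Rik, 4930405P13Rik and 1810019D21Rik) and E030030I06Rik and Col6a4 as protein-coding.

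Oocytes were taken at day 14, when mouse oocytes are growing in their follicles, and the question named in the study's title is how the RNA helicase MTR4 bears on oocyte volume. Nucleus and cytoplasm were parted by micromanipulation, and total RNA of 10 nuclei or 10 cytoplasms, depleted of ribosomal RNA, went into each library. The 4 groups were Mtr4-null cytoplasm, WT cytoplasm, Mtr4-null nucleus and WT nucleus, with 3 libraries each. The null allele, the Cre driver if one was used, the strain and the number of mice are not stated in the labels. Duplicates are mentioned in the design text although each group has 3 labelled libraries, and nothing says that they came from separate mice, so errors and p-values measure the spread between libraries, which may be technical. Each level is that of a pool of 10 nuclei or 10 cytoplasms, so a change in all of them and a larger change in some of them cannot be told apart.

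MTR4 is a DExH-box helicase of the nucleus that unwinds RNA and feeds it into the nuclear exosome, a ribonuclease complex. It works in adaptor complexes (TRAMP, NEXT and the PAXT connection) that mark out promoter-upstream and enhancer transcripts, unspliced or prematurely ended RNAs and snoRNA precursors for trimming or decay. In human cells, MTR4 and the export adaptor ALYREF have been described as competing for the same cap-bound RNAs.

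Windows around the annotated starts are printed because the transcripts differ in their starts although their levels were chosen for 1 pattern, and the window of Col6a5 is added because that gene is the neighbour of Col6a4 whose levels are described further on. RefSeq (build GRCm38.p6) had a window of 300 bases, 250 before and 50 after the start, for 4 of the 5 transcripts. They are written 5′ to 3′ on the gene's own strand, and capitals mark matches on either strand to 3 promoter motifs. TATAAA is the core of the box bound by the general transcription factor TBP. CCAAT is the core of the box bound by NF-Y. TAATTG is a core of the element bound by the oocyte factor NOBOX. 4930470H14Rik is named only. The window of E030030I06Rik is chr10:22149221-22149520, minus strand. That of 4930405P13Rik, which RefSeq calls Scpep1os, is chr11:88905678-88905977, plus strand. That of 1810019D21Rik is chr8:106135150-106135449, plus strand. Those of Col6a4 and Col6a5 are chr9:106096642-106096941 and chr9:105960594-105960893, both on the minus strand.
E030030I06Rik: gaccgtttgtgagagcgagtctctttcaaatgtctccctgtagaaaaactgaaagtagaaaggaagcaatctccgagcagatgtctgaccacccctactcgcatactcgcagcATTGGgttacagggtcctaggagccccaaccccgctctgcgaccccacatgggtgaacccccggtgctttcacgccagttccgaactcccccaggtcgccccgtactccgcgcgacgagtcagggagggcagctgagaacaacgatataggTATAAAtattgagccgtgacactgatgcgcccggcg
4930405P13Rik: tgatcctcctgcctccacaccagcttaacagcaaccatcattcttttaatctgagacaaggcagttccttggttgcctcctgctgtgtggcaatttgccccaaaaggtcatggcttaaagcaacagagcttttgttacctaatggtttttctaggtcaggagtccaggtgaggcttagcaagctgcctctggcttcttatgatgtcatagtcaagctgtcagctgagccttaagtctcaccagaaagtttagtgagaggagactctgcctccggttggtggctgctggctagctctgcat
1810019D21Rik: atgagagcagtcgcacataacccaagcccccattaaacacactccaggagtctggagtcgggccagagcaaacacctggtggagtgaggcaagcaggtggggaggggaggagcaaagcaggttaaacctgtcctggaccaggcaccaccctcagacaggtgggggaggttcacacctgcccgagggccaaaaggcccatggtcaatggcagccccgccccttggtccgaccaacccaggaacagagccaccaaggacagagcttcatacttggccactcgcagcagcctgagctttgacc
Col6a4: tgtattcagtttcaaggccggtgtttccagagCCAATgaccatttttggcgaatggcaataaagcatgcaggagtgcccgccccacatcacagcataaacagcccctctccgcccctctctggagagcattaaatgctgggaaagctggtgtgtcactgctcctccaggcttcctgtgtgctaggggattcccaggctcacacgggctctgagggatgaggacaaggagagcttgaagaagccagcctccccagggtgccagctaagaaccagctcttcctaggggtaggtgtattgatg
Col6a5: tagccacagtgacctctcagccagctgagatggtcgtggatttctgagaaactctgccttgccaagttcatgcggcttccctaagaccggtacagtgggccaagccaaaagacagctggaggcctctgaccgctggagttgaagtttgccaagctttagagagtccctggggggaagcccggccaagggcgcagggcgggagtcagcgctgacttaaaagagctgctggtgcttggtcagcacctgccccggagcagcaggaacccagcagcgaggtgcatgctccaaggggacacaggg
The E030030I06Rik window held 21 CG dinucleotides, against a median of 7 over 32851 RefSeq windows of this length, with TATAAA beginning 15 bases after the start and CCAAT on the reverse strand 137 bases before it. The windows of 4930405P13Rik and 1810019D21Rik had 1 and 6 CG dinucleotides and none of the 3 motifs. Col6a4 had 5 CG dinucleotides and CCAAT 218 bases before its start, and Col6a5 had 10 and no motif. TATAAA was found in 13.6% of all windows, CCAAT in 37.4% and TAATTG in 8.0%, so matches of this kind are common and are given as a description. No motif was shared by all 4 windows of the chosen transcripts.

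The targeted gene checks the labels. Skiv2l2, the table's older symbol for Mtr4, had 1.04, 0.315 and 0.700 FPKM in the Mtr4-null cytoplasms, against 21.1, 19.4 and 20.2 FPKM in the WT cytoplasms. In the nuclei it had 7.98, 0.182 and 1.12 FPKM in the libraries labelled Mtr4-null replicates 1, 2 and 3, against 6.06, 2.45 and 5.37 FPKM in the WT nuclei. Skiv2l2 fell in cytoplasm (log2 difference -3.68 ± 0.57 SE, limma adjusted p = 0.0048), while the nuclear difference was -0.93 ± 0.57 (limma adjusted p = 0.42) and replicate 1 of the nuclei labelled Mtr4-null exceeded every WT nucleus, against its label. Replicate 3 of the nuclei labelled Mtr4-null stood apart in another way. Its level of Gdf9, an oocyte growth factor with 3215 to 3482 FPKM in the cytoplasms, was 2504 FPKM, against 1289 and 728 FPKM in the other nuclei labelled Mtr4-null and 737 to 922 FPKM in the WT nuclei. The nuclear log2 differences of the 5 transcripts and the nuclear calls named below are given also without these 2 libraries, for which replicate 2 is the single nucleus labelled Mtr4-null and is assumed to vary like the other groups. Of the summed FPKM, 58.0% to 81.7% belonged to Scarna2, an RNA of Cajal bodies, in the 6 nuclei and at most 5.13% in the 6 cytoplasms, so a percentage of a nuclear level below is a ratio of shares and not of molecules. Depth relative to WT cytoplasm replicate 1 was estimated from the most frequent ratio of low values between libraries. It was 0.536 to 1.15 in the Mtr4-null cytoplasms and 1.0 to 1.52 in the WT cytoplasms. In the nuclei it was 0.406 in replicate 3 of those labelled Mtr4-null and 0.125 to 0.177 in the others. That replicate also had the lowest nuclear share of Scarna2, 58.0%, so it differed in depth and composition as well as in Gdf9. Absolute depth is unknown.

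4930470H14Rik, the highest of the 5 transcripts in Mtr4-null cytoplasm and in the nuclei of both genotypes, is an intergenic long noncoding RNA of 4 exons and 1734 bases whose gene spans 38.3 kb. It had 82.1, 66.1 and 97.6 FPKM in the Mtr4-null cytoplasms, against 7.17, 2.84 and 2.83 FPKM in the WT cytoplasms. The lowest Mtr4-null cytoplasm lay above the highest WT cytoplasm, and WT cytoplasm replicate 1 was the highest of its group. In the nuclei it had 604, 350.1 and 687 FPKM in the libraries labelled Mtr4-null, against 1149, 674 and 1122 FPKM in the WT nuclei. The nuclear groups overlapped by a single pair, since the highest library labelled Mtr4-null (replicate 3) exceeded the lowest WT nucleus. The cytoplasmic mean was 81.9 ± 15.8 FPKM in Mtr4-null and 4.28 ± 2.51 FPKM in WT (SD, n = 3 each), 19.2 times as high, with a log2 difference of 4.05 ± 0.39 (SE) on the log2(FPKM + 1) scale used for all log2 differences here. The nuclear mean was 547 FPKM in libraries labelled Mtr4-null, 0.557 times the 982 FPKM of WT nuclei. Among all 23235 entries ranked by group mean, 4930470H14Rik stood at place 911 in Mtr4-null cytoplasm and at place 8628 in WT cytoplasm, against place 75 in the nuclei labelled Mtr4-null and place 53 in the WT nuclei.

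4930405P13Rik is an antisense long noncoding RNA of 5 exons and 811 bases that overlaps Scpep1, a serine carboxypeptidase-like gene, on the opposite strand. It had 11.2, 9.68 and 10.2 FPKM in the Mtr4-null cytoplasms, against 0.838, 1.15 and 1.02 FPKM in the WT cytoplasms. The cytoplasmic groups were far apart, and both were narrow. In the nuclei it had 26.9, 48.3 and 32.2 FPKM in the libraries labelled Mtr4-null, against 33.1, 31.8 and 40.5 FPKM in the WT nuclei. The libraries labelled Mtr4-null held both the lowest and the highest nuclear value, so these groups overlapped throughout. The cytoplasmic mean was 10.4 ± 0.767 FPKM in Mtr4-null and 1.003 ± 0.158 FPKM in WT (SD, n = 3 each), a ratio of 10.3 and a log2 difference of 2.50 ± 0.31 (SE). The nuclear log2 difference was -0.01 ± 0.31 (SE), the nearest to 0 of the 5 transcripts.

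1810019D21Rik is a long noncoding RNA of 2 exons and 984 bases in a gene of 3.13 kb, and it overlaps Esrp2, an epithelial splicing regulator, on the opposite strand. It had 16.4, 12.4 and 15.6 FPKM in the Mtr4-null cytoplasms, against 2.41, 1.71 and 1.02 FPKM in the WT cytoplasms. It had 5.15, 8.17 and 12.3 FPKM in the nuclei labelled Mtr4-null, against 8.90, 9.78 and 11.6 FPKM in the WT nuclei. Every Mtr4-null cytoplasm lay above every library of each other group, nuclei included. The cytoplasmic mean was 14.8 ± 2.12 FPKM in Mtr4-null and 1.71 ± 0.698 FPKM in WT (SD, n = 3 each), a ratio of 8.65 and a log2 difference of 2.57 ± 0.36 (SE). The nuclear log2 difference was -0.28 ± 0.36 (SE), and the nuclear groups overlapped.

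E030030I06Rik is annotated as protein-coding in RefSeq and GENCODE, with a longest transcript of 2 exons and 2081 bases in a gene of 36.2 kb; its protein has no role given here. It had 24.2, 33.9 and 25.4 FPKM in the Mtr4-null cytoplasms, against 1.55, 0.696 and 1.76 FPKM in the WT cytoplasms. It had 13.6, 7.78 and 32.2 FPKM in the nuclei labelled Mtr4-null, against 33.4, 19.3 and 27.1 FPKM in the WT nuclei. The cytoplasmic groups did not overlap, whereas the nuclear groups did, through replicate 3 of the nuclei labelled Mtr4-null alone. The cytoplasmic mean was 27.8 ± 5.28 FPKM in Mtr4-null and 1.33 ± 0.562 FPKM in WT (SD, n = 3 each). The ratio was 20.9, against 19.2 for 4930470H14Rik, and the order of these 2 turned without WT cytoplasm replicate 1, at 22.7 for E030030I06Rik and 28.9 for 4930470H14Rik. The log2 difference of 3.64 ± 0.43 (SE) was second to that of 4930470H14Rik. The nuclear log2 difference was -0.74 ± 0.43 (SE).

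Col6a4 encodes a collagen VI alpha chain, a secreted protein of the extracellular matrix, in 38 exons over 107 kb; in humans its counterpart is broken into pseudogenes. It had 14.6, 14.3 and 19.4 FPKM in the Mtr4-null cytoplasms, against 4.13, 4.01 and 5.32 FPKM in the WT cytoplasms. It had 19.4, 15.1 and 23.6 FPKM in the nuclei labelled Mtr4-null, against 35.0, 28.3 and 43.2 FPKM in the WT nuclei. Neither pair of groups overlapped, with Mtr4-null above WT in the cytoplasm and below WT in the nucleus. The cytoplasmic mean was 16.1 ± 2.86 FPKM in Mtr4-null and 4.49 ± 0.727 FPKM in WT (SD, n = 3 each), a ratio of 3.58 and a log2 difference of 1.63 ± 0.31 (SE). The nuclear mean was 19.4 ± 4.26 FPKM in libraries labelled Mtr4-null and 35.5 ± 7.46 FPKM in WT (SD, n = 3 each), a ratio of 0.546 and a log2 difference of -0.84 ± 0.31 (SE).

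**Figure D1:**
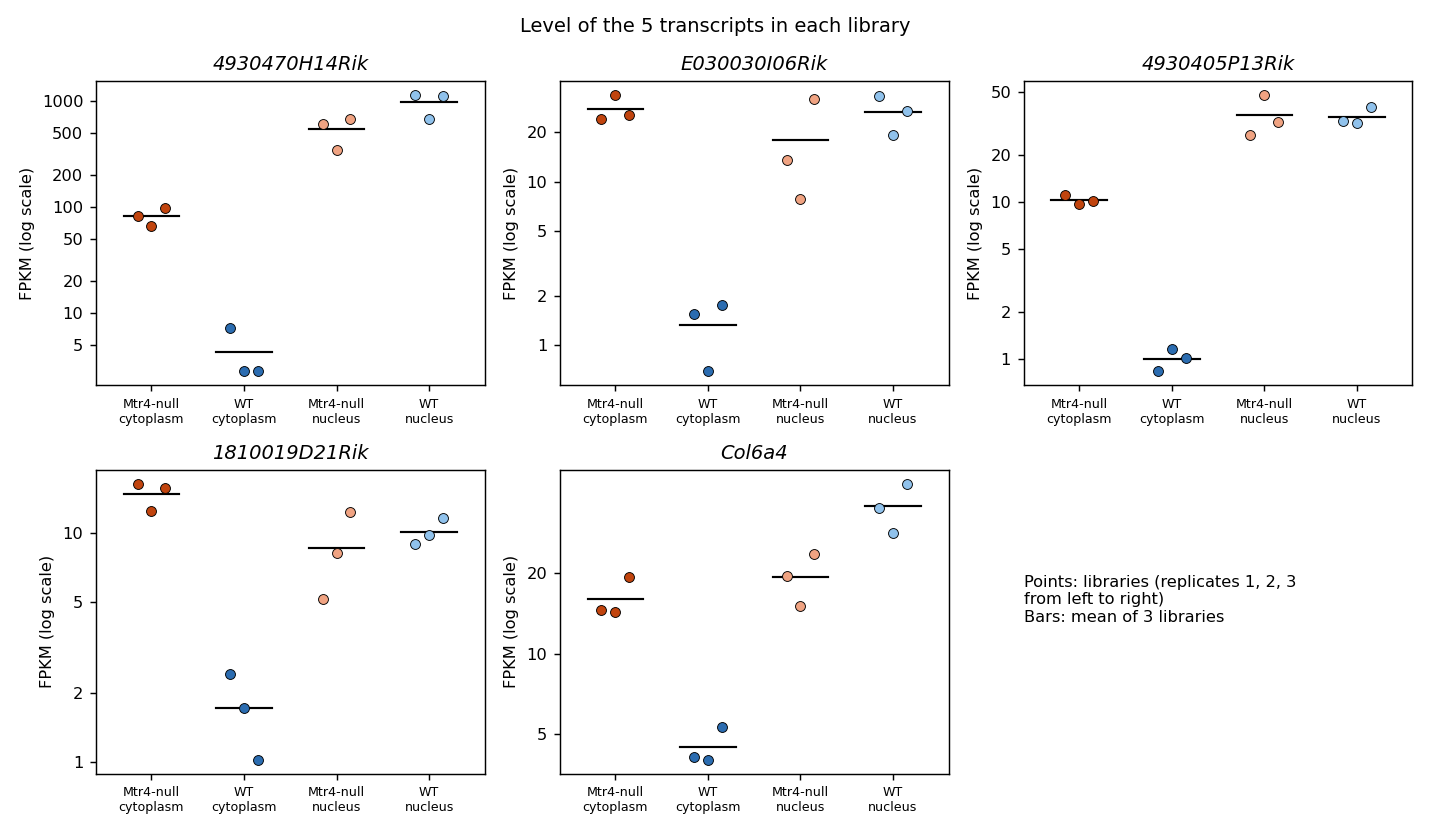
FPKM on a log axis in each of the 12 libraries for 4930470H14Rik, E030030I06Rik, 4930405P13Rik, 1810019D21Rik and Col6a4, with points for libraries and bars for the mean of 3 libraries. In each panel the 3 Mtr4-null cytoplasms lie above the 3 WT cytoplasms, and for 1810019D21Rik they also lie above all nuclei.

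All 5 transcripts had cytoplasmic groups that did not overlap, Mtr4-null above WT, as 23.0% of all tested entries did; the choice of the transcripts used this contrast, so the count is given as a description. In WT, all 5 had every nucleus above every cytoplasm, as 14.1% of all tested entries did. The WT log2 difference, nucleus minus cytoplasm, was 7.60 for 4930470H14Rik, 4.17 for 4930405P13Rik, 3.56 for E030030I06Rik, 2.72 for Col6a4 and 2.06 for 1810019D21Rik, against a median of -0.90 over all tested entries. That median is 0.00 under median-of-ratios scaling and -0.25 under quantile normalization, and the 5 differences kept their sign under all 20 alternative settings. Of the nuclear groups, those of Col6a4 alone did not overlap, labelled Mtr4-null below WT, as 6.7% of all tested entries did.

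The label under which these transcripts were brought together speaks of nuclear RNA leaking into the cytoplasm. A route from nucleus to cytoplasm was not measured, so they are called here by their levels. In Mtr4-null oocytes the nucleus did not hold the higher level for all of them. The mean cytoplasmic level of 1810019D21Rik was 173% of the nuclear level in Mtr4-null and 17.0% in WT. For E030030I06Rik it was 156% in Mtr4-null and 5.01% in WT. The value of 156% was 260.1% without replicate 3 of the nuclei labelled Mtr4-null and 357% with replicate 2 as the single nucleus of that group. These 2 transcripts thus had a higher mean in Mtr4-null cytoplasm than in the nuclei labelled Mtr4-null, although the groups of E030030I06Rik overlapped through replicate 3 of those nuclei. For Col6a4 the percentage was 82.8% in Mtr4-null and 12.6% in WT, and its Mtr4-null compartments overlapped too. For 4930405P13Rik it was 28.9% in Mtr4-null and 2.86% in WT, and for 4930470H14Rik it was 15.0% in Mtr4-null and 0.436% in WT. These last noncoding RNAs, 4930405P13Rik and 4930470H14Rik, had every nucleus labelled Mtr4-null above every Mtr4-null cytoplasm, as 5.95% of tested entries did, and 1810019D21Rik had the reverse, as 35.8% did. The percentage in Mtr4-null was 34.4 times that in WT for 4930470H14Rik, 31.1 times for E030030I06Rik, 10.2 times for 1810019D21Rik, 10.1 times for 4930405P13Rik and 6.56 times for Col6a4. The percentage was also taken for known nuclear RNAs, and it can be higher through a higher cytoplasmic or a lower nuclear level. For 10 tested nuclear long noncoding RNAs the median log2 difference was 0.27 in the cytoplasm and -1.29 in the nucleus. Of 11 listed nuclear long noncoding RNAs with a mean above 0 in all 4 groups, the percentage was higher in Mtr4-null for 10 and lower for Ipw, with a median of 6.44 times, against 0.846 times over 12684 tested entries with such means. Some of the 11 were too low to be tested. The percentage was 11.2 times that in WT for Airn, 9.69 times for Mirg and 8.05 times for Kcnq1ot1. Mirg and Kcnq1ot1 had at most 0.298 and 0.437 FPKM in any cytoplasm, and the cytoplasmic groups of Mirg overlapped. Of 8 small nuclear and nucleolar RNAs, it was higher for 4 (16.2 times for Terc, the telomerase RNA) and lower for 4 (Rmrp, Rpph1, Rnu12 and Scarna13). No difference between the 5 transcripts and these RNAs was tested.

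**Figure D2:**
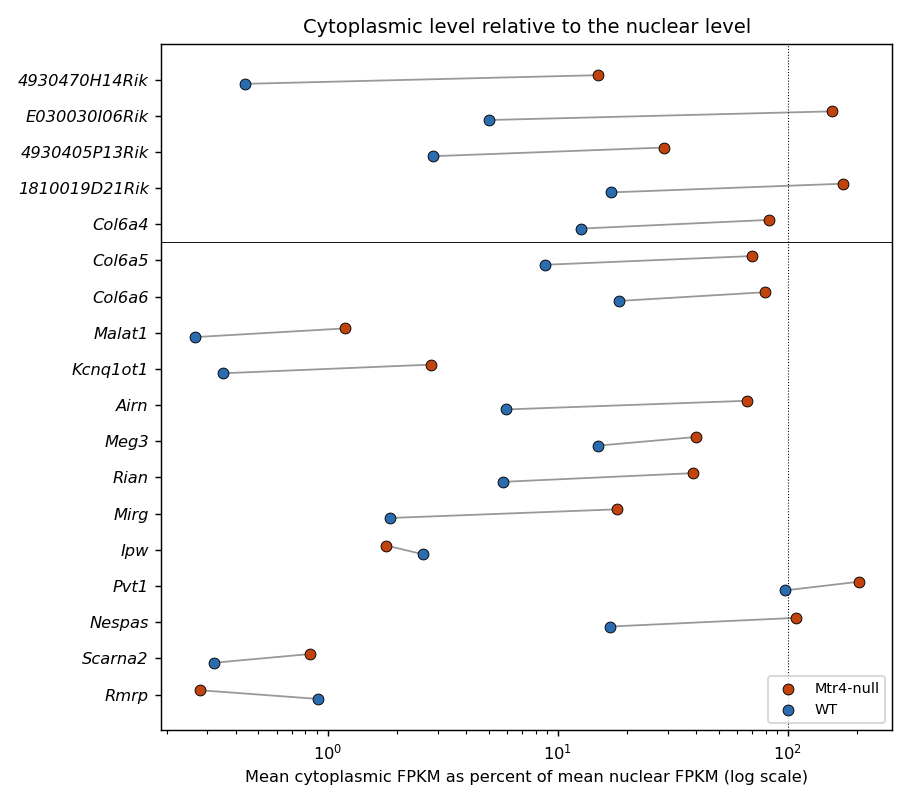
Mean cytoplasmic FPKM as a percentage of mean nuclear FPKM (log axis) in Mtr4-null and in WT, with the 5 transcripts above the line. Below it are Col6a5, Col6a6, Scarna2, Rmrp and the tested nuclear long noncoding RNAs with a mean above 0 in all 4 groups. 4930470H14Rik stands at 15.0% in Mtr4-null and 0.436% in WT, while E030030I06Rik and 1810019D21Rik pass 100% (dotted line) in Mtr4-null. Of the nuclear RNAs shown, Ipw and Rmrp lie lower in Mtr4-null than in WT.

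The nuclear differences without the doubted libraries are given as a description, since the choice of the transcripts used the nuclear levels. 4930470H14Rik, E030030I06Rik and Col6a4 were below 0 in each of these settings, and 4930405P13Rik was above 0 in each. With replicate 1 of the nuclei labelled Mtr4-null left out, the log2 differences were -0.96 for 4930470H14Rik, -0.66 for E030030I06Rik, 0.17 for 4930405P13Rik, 0.00 for 1810019D21Rik and -0.85 for Col6a4. With replicate 3 left out and replicate 1 kept, they were -1.05 for 4930470H14Rik, -1.25 for E030030I06Rik, 0.05 for 4930405P13Rik, -0.55 for 1810019D21Rik and -0.99 for Col6a4. The sign of 4930405P13Rik, whose difference was near 0, turned in both cases. With replicate 2 as the single nucleus labelled Mtr4-null, they were -1.44 for 4930470H14Rik, -1.62 for E030030I06Rik, 0.46 for 4930405P13Rik, -0.27 for 1810019D21Rik and -1.16 for Col6a4. The median over all tested entries was then -0.50, so 4930470H14Rik, E030030I06Rik and Col6a4 lay below it and 4930405P13Rik and 1810019D21Rik above it. With all 3 libraries that median was 0.04.

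**Figure D3:**
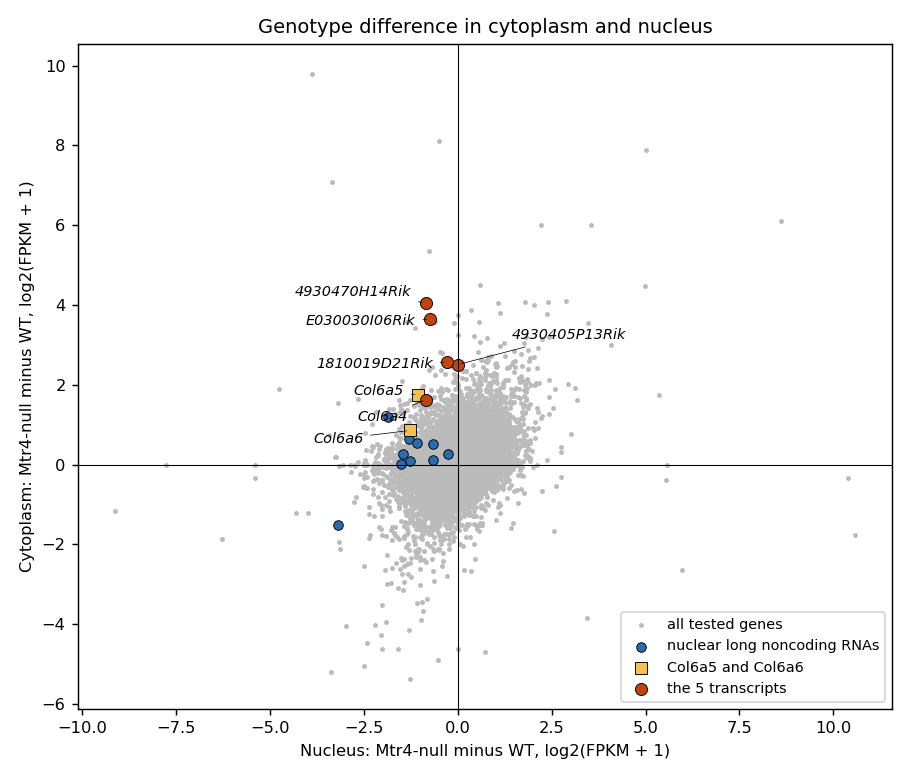
Each point is a tested entry, with the Mtr4-null minus WT difference of log2(FPKM + 1) in the nucleus on the horizontal axis and in the cytoplasm on the vertical axis. The 5 transcripts lie at 1.63 to 4.05 in the cytoplasm and at -0.86 to -0.01 in the nucleus, with Col6a5 and Col6a6 beside Col6a4 and the 10 nuclear long noncoding RNAs at -1.503 to 1.196 in the cytoplasm.

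Summed over the 5 transcripts, the Mtr4-null cytoplasms held 136.3 to 168.1 FPKM, against 10.4 to 16.1 FPKM in the WT cytoplasms. The nuclei labelled Mtr4-null held 429.5 to 787.5 FPKM, against 763.3 to 1260 FPKM in the WT nuclei. 4930470H14Rik made up 48.5% to 58.1% of that sum in the Mtr4-null cytoplasms, 23.7% to 44.6% in the WT cytoplasms, and 81.5% to 91.2% in the nuclei of both genotypes, so the sum mainly follows this transcript. Across the 12 libraries the transcripts correlated with each other with Pearson's r of 0.728 (1810019D21Rik with 4930470H14Rik) to 0.972 (4930405P13Rik with 4930470H14Rik). These values are a description, since the 12 libraries share the group structure on which the transcripts were chosen.

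Other entries followed the same levels over the 12 libraries. They were picked by their correlation with the chosen transcripts over these libraries, so their sharing of the group pattern follows from the choice and is a description. The closest to 4930405P13Rik were A330032B11Rik (r = 0.992) and Snora47 (r = 0.990), an H/ACA snoRNA, the class that guides pseudouridylation. Snora47 had 1568, 2036 and 1722 FPKM in the Mtr4-null cytoplasms, against 115, 176 and 83.4 FPKM in the WT cytoplasms. These groups did not overlap, as those of 23.0% of all tested entries did not with Mtr4-null above WT. The FPKM of so short an RNA rests on division by a short length. The closest to 4930470H14Rik were Casc4 (r = 0.983), a Golgi membrane protein gene, and 4921508A21Rik (r = 0.975). Casc4 had a mean of 6.54 ± 0.860 FPKM in Mtr4-null cytoplasm and 2.31 ± 0.395 FPKM in WT cytoplasm, and 4921508A21Rik had 6.78 ± 0.778 FPKM in Mtr4-null cytoplasm and 1.73 ± 0.198 FPKM in WT cytoplasm (SD, n = 3 each). The closest to E030030I06Rik were 2500004C02Rik (r = 0.952), at 7.48 ± 1.41 FPKM in Mtr4-null and 0.549 ± 0.0515 FPKM in WT cytoplasm, and Ccdc78 (r = 0.945), a centriole assembly gene of ciliated cells. The closest to 1810019D21Rik were 4932411G14Rik (r = 0.963) and 9330151L19Rik (r = 0.945), both also with a higher mean in Mtr4-null cytoplasm than in the nuclei labelled Mtr4-null. The closest to Col6a4 were its neighbour Col6a5 (r = 0.968) and Mll5 (r = 0.961), a chromatin regulator gene.

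Collagen VI is assembled from the chains of Col6a1 and Col6a2 with a further chain, for which Col6a3, Col6a4, Col6a5 or Col6a6 can serve. Col6a4, Col6a5 and Col6a6 lie in a row on the minus strand of mouse chromosome 9, while Col6a3 is on chromosome 1 and Col6a1 and Col6a2 are on chromosome 10. Col6a5 had 17.7, 9.69 and 21.6 FPKM in the Mtr4-null cytoplasms, against 3.10, 3.79 and 5.06 FPKM in the WT cytoplasms. It had 29.2, 9.49 and 31.7 FPKM in the nuclei labelled Mtr4-null, against 50.4, 32.7 and 52.2 FPKM in the WT nuclei. As with Col6a4, neither pair of groups overlapped. The cytoplasmic log2 difference of Col6a5 was 1.75 ± 0.44 (SE), which missed the threshold (limma adjusted p = 0.0557, and 7.64e-06 to 0.264 over 20 alternatives, 8 of them past the threshold of 0.05). Its nuclear difference was -1.05 ± 0.44 (limma adjusted p = 0.22) and the difference of the cytoplasmic and nuclear effects was 2.80 ± 0.62 (limma adjusted p = 0.0763), a comparison in which 0.122% of tested entries were called. That last difference was past the threshold in 6 of 19 alternatives. With replicate 2 as the single nucleus labelled Mtr4-null, the nuclear difference of Col6a5 was -2.11 (limma adjusted p = 0.00581).

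Col6a6 had the highest level of the collagen VI genes, with 59.4, 52.9 and 77.4 FPKM in the Mtr4-null cytoplasms, against 36.8, 32.7 and 32.8 FPKM in the WT cytoplasms. Its nuclear means were 79.9 ± 39.4 FPKM in libraries labelled Mtr4-null and 185 ± 52.0 FPKM in WT (SD, n = 3 each). The direction was that of Col6a4 in both compartments, and neither difference passed the threshold (log2 difference in cytoplasm 0.86, limma adjusted p = 0.312; in nucleus -1.27, limma adjusted p = 0.0731). The cytoplasmic difference was past it in 3 of 20 alternatives and the nuclear one in 4 of 20, among them -1.64 (limma adjusted p = 0.0105) without replicate 1 of the nuclei labelled Mtr4-null and -1.86 (limma adjusted p = 0.00277) with replicate 2 as the single nucleus of that group. The cytoplasmic ratio of Mtr4-null to WT was thus 3.58 for Col6a4, 4.10 for Col6a5 and 1.86 for Col6a6. Col6a3 had 4.62 ± 1.37 FPKM in Mtr4-null cytoplasm and 5.20 ± 0.4995 FPKM in WT cytoplasm (SD, n = 3 each), a log2 difference of -0.17 (limma adjusted p = 0.976). Col6a1 and Col6a2 were listed at 0 in all 3 Mtr4-null cytoplasms and were below 0.02 FPKM in each WT cytoplasm. Of 14 other tested genes of collagen VI and the basement membrane, none was called in the cytoplasm with limma, where 1.88% of all tested entries were called, and their median log2 difference was 0.01. At an unadjusted p below 0.05, 3 of them were higher and 2 lower in Mtr4-null cytoplasm. Of 1136 tested entries with Rik names, the chosen ones left out, 175 were higher and 44 lower at that cutoff. Col6a5 and other list genes passed the threshold there once nuclear libraries were left out of the shared fit. Without replicate 1 of the nuclei labelled Mtr4-null, 2 were higher and 1 lower, where 2.61% of tested entries rose and 1.36% fell. In the nucleus Col4a5, a basement membrane collagen IV chain, fell (log2 difference -2.24, limma adjusted p = 0.0247, past the threshold in 14 of 20 alternatives) and none rose, where 2.26% of tested entries were called. Without replicate 3 of the nuclei labelled Mtr4-null, Col4a5 missed the threshold (limma adjusted p = 0.0647). Without replicate 1, 1 of the 14 rose and 5 fell, where 4.58% of tested entries rose and 5.65% fell. With replicate 2 alone the median log2 difference of the 14 was -0.83, against -0.50 over all tested entries. Col4a5 had 3.73, 0 and 0.0597 FPKM in the nuclei labelled Mtr4-null, against 10.4, 6.56 and 5.17 FPKM in the WT nuclei.

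**Figure D4:**
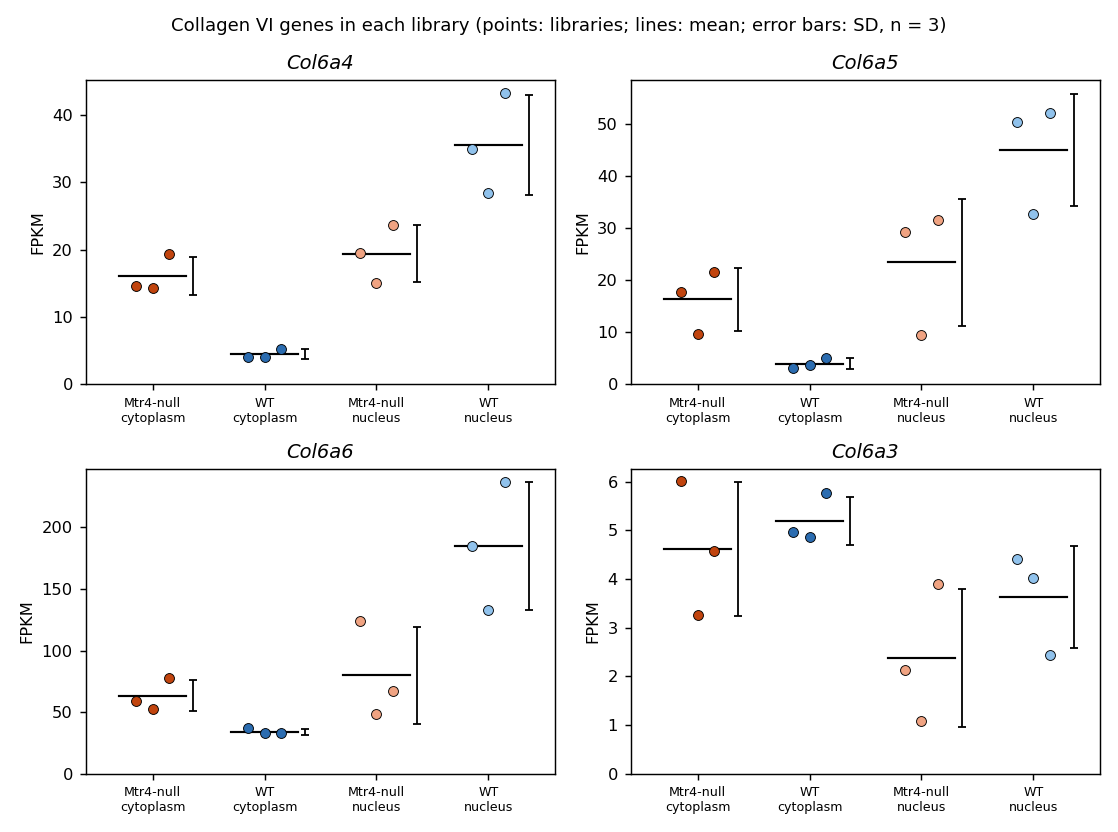
FPKM of Col6a4, Col6a5, Col6a6 and Col6a3 in each library, with points for libraries, lines for means and bars for SD (n = 3). Col6a4, Col6a5 and Col6a6 lie higher in Mtr4-null than in WT cytoplasm and lower in the nuclei labelled Mtr4-null than in WT nuclei, while the cytoplasmic groups of Col6a3 overlap.

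The nearest gene on each side that the table holds was taken for each transcript, and none of the 8 that were tested passed the threshold in the cytoplasm or in the nucleus with limma. At an unadjusted p below 0.05, Col6a5 was higher in the cytoplasm and lower in the nucleus, and Glyctk was higher in the nucleus. Scpep1, which overlaps 4930405P13Rik on the opposite strand, had 21.3 ± 6.14 FPKM in Mtr4-null cytoplasm and 21.02 ± 2.94 FPKM in WT cytoplasm (SD, n = 3 each), a log2 difference of -0.01 ± 0.53 (limma adjusted p = 1.0) whose sign turned under 3 of 20 alternatives. Scpep1 was higher in cytoplasm than in nuclei in both genotypes by its means, the reverse of 4930405P13Rik in WT. Esrp2, which overlaps 1810019D21Rik, had 3.65 ± 0.612 FPKM in Mtr4-null cytoplasm and 2.65 ± 0.487 FPKM in WT cytoplasm (SD, n = 3 each), a log2 difference of 0.35 ± 0.32 (limma adjusted p = 0.831). The lowest Mtr4-null cytoplasm for Esrp2, at 3.125 FPKM, and the highest WT cytoplasm, at 3.122 FPKM, nearly coincided. Whether strand was used in counting is not given in the sources used here, and without strand the reads of such overlapping genes cannot be told apart. By RefSeq distances, Nox3 lies 348 kb from 4930470H14Rik and had a cytoplasmic log2 difference of -0.09 (limma adjusted p = 1.0). Raet1e, a ligand gene of natural killer cell receptors, lies 9.27 kb from E030030I06Rik and had 0.10 (limma adjusted p = 1.0). Akap1, an anchor of protein kinase A at mitochondria, lies 41.3 kb from 4930405P13Rik and had 0.38 (limma adjusted p = 0.84). Pla2g15, a lysosomal phospholipase gene, lies 11.6 kb from 1810019D21Rik and had 0.23 (limma adjusted p = 0.912), and Glyctk, glycerate kinase, lies 56.0 kb from Col6a4 and had 0.66 (limma adjusted p = 0.49). All 5 differences were smaller than those of the transcripts beside them, but the transcripts were chosen for a high cytoplasmic difference, so this is a description. Nox3 had means of 0.027 FPKM in Mtr4-null and 0.098 FPKM in WT cytoplasm, where the log2 scale moves little. The cytoplasmic groups of Glyctk (means 1.73 FPKM in Mtr4-null and 0.722 FPKM in WT) and Pla2g15 did not overlap, while those of Nox3, Raet1e and Akap1 did. The lncRNA 4930548J01Rik and 4930444G20Rik, beside 4930470H14Rik and E030030I06Rik, were too low to be tested.

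**Figure D5:**
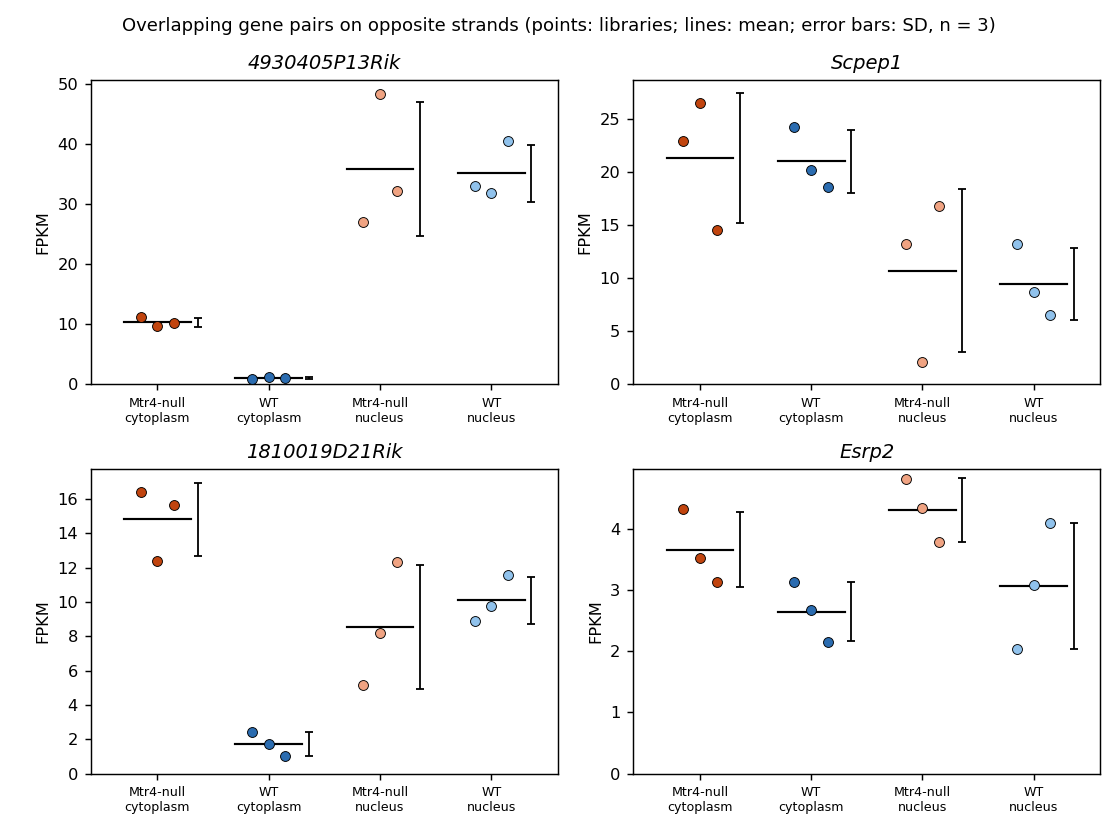
FPKM of 4930405P13Rik and 1810019D21Rik and of the genes that overlap them on the opposite strand, Scpep1 and Esrp2, in each library, with points for libraries, lines for means and bars for SD (n = 3). The cytoplasmic groups of the noncoding RNAs are apart, while Scpep1 has 21.3 FPKM in Mtr4-null and 21.02 FPKM in WT cytoplasm and the Esrp2 groups meet at about 3.12 FPKM.

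The levels of well-known nuclear RNAs were taken from the same libraries. Whether they measure nuclear RNA carried into the cytoplasm libraries was not tested. Malat1, a long noncoding RNA retained in nuclear speckles, had 1.002, 3.24 and 2.29 FPKM in the Mtr4-null cytoplasms, against 2.72, 0.468 and 0.365 FPKM in the WT cytoplasms. These groups overlapped (log2 difference 0.64, limma adjusted p = 0.719), and its cytoplasmic mean was 1.19% of the nuclear mean in Mtr4-null and 0.264% in WT. Of 10 tested nuclear long noncoding RNAs, none was called in the cytoplasm with limma, where 1.88% of all tested entries were called, Airn was higher and Ipw lower at an unadjusted p below 0.05, and the list had a median log2 difference of 0.27 against 0.00 over all tested entries. All 16 listed ones that the table holds, tested or not, summed to 12.1 to 17.4 FPKM in the Mtr4-null cytoplasms and 8.99 to 12.3 FPKM in the WT cytoplasms. Their sum was 141.3 to 368 FPKM in the nuclei labelled Mtr4-null and 411.5 to 834.5 FPKM in the WT nuclei. Airn and Ipw passed the threshold in the cytoplasm with replicate 2 as the single nucleus labelled Mtr4-null in the shared fit. In the nucleus 3 of the 10 fell and none rose, with a median of -1.29, where 1.75% of all tested entries fell. These were Ipw (-3.20, limma adjusted p = 0.0194, past the threshold in 14 of 20 alternatives), Peg13 (-1.51, limma adjusted p = 0.00797, in 19 of 20) and Airn (-1.85, limma adjusted p = 0.0466, in 6 of 20), all transcribed from imprinted regions. Without replicate 1 of the nuclei labelled Mtr4-null 4 of the 10 fell, where 5.65% of tested entries fell. Without replicate 3 only Peg13 did, where 2.53% fell. With replicate 2 alone the median of the 10 was -1.73, against -0.50 over all tested entries. The cytoplasmic minus the nuclear log2 difference was above 0 in 10 of 10, with a median of 1.57 against -0.06 over all tested entries, and none was called with limma, while 7 were above 0 at an unadjusted p below 0.05. At that cutoff, 186 of 1136 tested entries with Rik names, the chosen ones left out, were above 0 and 35 below 0. With 1 of the 2 doubted nuclei left out, whichever it was, Airn and Peg13 were called. Of all tested entries, 1.26% were called without replicate 1 and 2.2% without replicate 3. With both left out the median of the 10 was 2.055, against 0.485 over all tested entries.

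Small structured nuclear RNAs varied between libraries of 1 group. Scarna2 had 4599.5, 24155.6 and 3310 FPKM in the Mtr4-null cytoplasms, against 16982 FPKM in WT cytoplasm replicate 1 and a listed 0 in replicates 2 and 3. Rmrp, the RNA of the nucleolar RNase MRP, had 134, 96.5 and 143 FPKM in the Mtr4-null cytoplasms, against 1799, 80.4 and 62.5 FPKM in the WT cytoplasms. WT cytoplasm replicate 1 was the highest WT cytoplasm for Malat1, Scarna2, Rmrp and 4930470H14Rik, but the lowest for Ipw, Airn, Rian and 4930405P13Rik. None of the 12 tested small nuclear and nucleolar RNAs was called in either compartment with limma, with medians of 0.79 in the cytoplasm and -0.71 in the nucleus. At an unadjusted p below 0.05, 2 were higher in the cytoplasm (Scarna2 and Terc) and 1 lower in the nucleus (Scarna3a). The part of nuclear RNA carried into the cytoplasm libraries in the levels of the 5 transcripts was not tested.

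The genes that act on nuclear RNA were described from lists. Of 21 tested genes for MTR4, its partner complexes and the nuclear exosome, Skiv2l2 fell in the cytoplasm, and no other was called in either compartment with limma (medians 0.02 in cytoplasm and 0.29 in nucleus). At an unadjusted p below 0.05, 3 were higher and 1 lower in each compartment (Skiv2l2 the 1 lower in the cytoplasm). None of 25 tested genes of RNA export and cap binding was called with limma (medians -0.06 in cytoplasm and 0.03 in nucleus), with 1 higher and 1 lower in each compartment at an unadjusted p below 0.05. None of 21 tested genes of cytoplasmic RNA decay was called with limma (medians 0.06 in cytoplasm and 0.24 in nucleus), with 1 higher and 2 lower in the cytoplasm and 4 higher in the nucleus at an unadjusted p below 0.05. With replicate 2 as the single nucleus labelled Mtr4-null, 5 rose and 3 fell in the nucleus among the MTR4 and exosome genes, 1 rose and 8 fell among the export genes and 3 rose and 7 fell among the decay genes, where 4.95% of tested entries rose and 25.2% fell. The exosome cofactor gene Mphosph6 had 266 ± 44.2 FPKM in Mtr4-null cytoplasm and 283 ± 35.0 FPKM in WT cytoplasm, and Upf1, a helicase of nonsense-mediated decay, had 141 ± 11.2 FPKM in Mtr4-null cytoplasm and 143 ± 9.94 FPKM in WT cytoplasm (SD, n = 3 each). Over all tested entries, 1.17% rose and 0.714% fell in the cytoplasm, and 0.509% rose and 1.75% fell in the nucleus. Among 1136 tested entries with Rik names, the 4 chosen ones left out, 30 rose and 7 fell in the cytoplasm (median 0.12) and 11 rose and 42 fell in the nucleus (median -0.14). Among 380 with Gm names, 11 rose and 4 fell in the cytoplasm (median 0.08) and 1 rose and 14 fell in the nucleus (median -0.28). At an unadjusted p below 0.05, 175 of the 1136 were higher and 44 lower in the cytoplasm, and 95 were higher and 178 lower in the nucleus. Such counts were thus not rare outside the lists of genes above.

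Markers of cells that could be carried over were low beside the oocyte's own. The summed level of 14 oocyte markers was 14230 to 20340 FPKM in the Mtr4-null cytoplasms and 14470 to 15250 FPKM in the WT cytoplasms. The summed level of 14 granulosa cell markers was 27.8 to 38.1 FPKM in the Mtr4-null cytoplasms and 53.4 to 72.2 FPKM in the WT cytoplasms, without overlap and lower in Mtr4-null, and 10 of the 14 had a mean under 1 FPKM in Mtr4-null cytoplasm. The 12 theca and stroma markers summed to 0.343 to 1.12 FPKM in the Mtr4-null cytoplasms and 1.29 to 2.30 FPKM in the WT cytoplasms, and the 12 blood and endothelium markers to 13.8 to 21.7 FPKM in Mtr4-null and 16.7 to 25.4 FPKM in WT cytoplasms. No marker of these 4 lists was called in either compartment with limma. At an unadjusted p below 0.05, the granulosa genes Gata4 and Kitl and the endothelial gene Tek were lower in Mtr4-null cytoplasm, and, of the nuclei, those labelled Mtr4-null had higher Ooep and Sohlh1 (oocyte markers) and lower Star and Tagln (theca and stroma markers). The list medians of the tested genes were 0.04 for oocyte, -0.66 for granulosa, 0.01 for theca and stroma and 0.11 for blood and endothelium markers in the cytoplasm. Each of the 3 lists of other cell types thus had a lower range, or an overlapping one, in Mtr4-null cytoplasm, where the 5 transcripts were higher, and their part in those levels was not tested.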

How the data were processed

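Per the labels' protocols, total RNA of separated oocyte nuclei and cytoplasms was purified with TRIzol, ribosomal RNA was removed, and read pairs were sequenced. The authors deposited FPKM values, which per the submitters' processing notes were made with TopHat2 2.1.1 and Cufflinks 2.2.1 on build mm9. Neither the annotation nor any use of strand is given in the sources used here. Columns were matched to samples by title.

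Entries reaching 1 FPKM in 3 or more of 12 libraries were fitted as log2(FPKM + 1) with limma 3.58.1 in R 4.3.3, as 4 group means with variances moderated along a trend. P-values are two-sided and Benjamini-Hochberg adjusted over all 13157 tested entries for each comparison, with an adjusted p below 0.05 as the threshold. Counts at an unadjusted p are a description, and their share over all tested entries is not given. The log2 scale with a pseudocount understates the change of low levels. The fit was tested on simulated data. The transcripts and the lists of genes were chosen with earlier results of these data known. Named genes were the 5 transcripts, Skiv2l2, the nearest gene on each side in the RefSeq table, the 2 best correlated entries of each transcript and, of each list, called genes (up to 2 in each direction) and the 2 most abundant. Airn, Kcnq1ot1, Mirg, Rian, Rpph1, Rnu12, Scarna13, Col6a1, Col6a2, Col6a3 and the list genes named at an unadjusted p were named after their values were seen. RefSeq and GENCODE are on build GRCm38, so the table's mm9 was not converted, and promoter windows and distances are those of RefSeq. Alternatives were another pseudocount, no filter, median-of-ratios scaling, quantile normalization, a replicate block, array weights, fits of single contrasts and leaving out libraries. Read counts were not analysed here, so precision rests on the spread between libraries.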

Additional observations from a re-analysis of the deposited data

Results flagged for a closer look

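Every Mtr4-null cytoplasm lay above every WT cytoplasm while every nucleus labelled Mtr4-null lay below every WT nucleus in 129 of the 13157 tested entries (0.98%). The cytoplasmic separation alone was seen in 23.0% of tested entries and the nuclear one alone in 6.7%. Whether both occur together more often than these shares give was not tested. Of the genes for which values are given or which stand in the lists of nuclear RNAs and collagens, 7 were among these 129 entries. The cytoplasmic minus the nuclear log2 effect was 2.47 for Col6a4, 2.8 for Col6a5, 2.13 for Col6a6, 3.05 for Airn, 1.73 for Kcnq1ot1, 1.93 for Mll5 and 1.49 for Star. Airn is the antisense noncoding RNA of the imprinted Igf2r region and Kcnq1ot1 that of the imprinted Kcnq1 region. Col6a4 was chosen on these levels, and its difference was not tested. For the other 6 the listing rests on the separation of the libraries and not on a test. With limma's interaction term the adjusted p was 0.0763 for Col6a5, 0.0931 for Col6a6, 0.0674 for Airn, 0.251 for Kcnq1ot1, 0.107 for Mll5 and 0.172 for Star, none past the threshold. Col6a5 passed it in 6 of 19 alternatives, with an adjusted p of 0.00371 to 0.251, and Col6a6 in 4 of 19, with 0.004 to 0.302. Airn passed it without replicate 1 of the nuclei labelled Mtr4-null (limma adjusted p = 0.00941), without replicate 3 (0.0455) and without both (0.004). Airn had 3.39, 6.62 and 5.03 FPKM in the Mtr4-null cytoplasms, against 1.27, 1.39 and 2.09 FPKM in the WT cytoplasms. It had 14.6, 3.48 and 4.70 FPKM in the nuclei labelled Mtr4-null, against 38.5, 18.9 and 22.8 FPKM in the WT nuclei. Kcnq1ot1 and Star stayed below 1 FPKM in every cytoplasm of both genotypes.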

How the results depend on the processing

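The cytoplasmic log2 differences of the 5 transcripts kept their direction under all 20 alternatives, at 3.63 to 4.42 for 4930470H14Rik, 3.04 to 4.36 for E030030I06Rik, 1.95 to 3.25 for 4930405P13Rik, 2.06 to 3.11 for 1810019D21Rik and 1.32 to 1.81 for Col6a4. The nuclear differences stayed below 0 for 4930470H14Rik, E030030I06Rik and Col6a4, and spanned -0.30 to 0.46 for 4930405P13Rik and -0.68 to 0.00 for 1810019D21Rik.

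Counts of called entries moved far more than these values, and the cause was not tested. In the cytoplasm, where 248 were called, there were 140 with a pseudocount of 0.1, 139 without a filter, 97 with quantile normalization, 4801 with array weights, 3048 with the cytoplasm libraries alone and 56 to 602 on leaving out 1 library. In the nucleus, where 297 were called, there were 102 with the smaller pseudocount, 599 without a filter, 1262 with median-of-ratios scaling, 1160 with quantile normalization, 153 with array weights, 5 with the nuclear libraries alone and 125 to 1347 on leaving out 1 library. The lowest cytoplasmic count was without WT cytoplasm replicate 2 and the highest with replicate 3 of the nuclei labelled Mtr4-null left out, and the highest nuclear count with replicate 1 of that group left out. Of WT nucleus against WT cytoplasm, 7507 were called, with 3836 under median-of-ratios scaling and 3401 under quantile normalization, and 5721 to 8606 on leaving out 1 library. Of the interaction, 16 were called, with 111 without a filter, 183 with median-of-ratios scaling, 51 with quantile normalization, 959 with array weights and 5 to 289 on leaving out 1 library. With replicate 2 as the single Mtr4-null nucleus (by label), a setting chosen after seeing the data, 1370 were called in the cytoplasm, 3964 in the nucleus and 1450 for the interaction, with a lone nucleus of that group assumed to vary like the others.

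No label says that replicate numbers pair libraries, and the deviations of same-numbered libraries correlated at -0.154 to 0.303. With the replicate block, 328 were called in the cytoplasm, 377 in the nucleus, 7913 between WT compartments and 11 for the interaction. Skiv2l2 in the nucleus turned to 0.089 with array weights, and was -1.76 (limma adjusted p = 0.0153) with replicate 1 of the nuclei labelled Mtr4-null left out. Scpep1 in the cytoplasm turned to 0.012 with median-of-ratios scaling, and ranged from -0.18 to 0.23 on leaving out 1 library, turning to 0.090 without WT cytoplasm replicate 1 and to 0.23 without Mtr4-null cytoplasm replicate 3. Absolute depth is unknown, and the nuclei were the shallower libraries, so low nuclear values are the least precise.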
